A study of Mus musculus with 12 samples.

Results

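The genes described here encode the machinery and much of the contents of the peroxisome. They were chosen by symbol, as 46 named genes: 13 peroxins (the PEX proteins that build the organelle), the ABC transporters and other carriers of its membrane, and the enzymes of its matrix. The acyl-CoA oxidation genes that the lipid receptor PPARα is known to drive were left out by that rule. The deposited table holds 17432 genes and 45 of the 46 symbols, and Dao was not analysed here. All 45 passed the filter on low counts and were tested, among 12344 genes in all.

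The series compared the livers of 6 sedentary mice with those of 6 mice after a single treadmill bout, at 14 m/min for 3 hours. All 12 were wild-type C57BL/6J males of 8 to 10 weeks, with no treatment beyond the feeding and treadmill schedule. Feeding had been confined to daytime for 3 days. On each of those days the mice were also put on the treadmill, with shock grids on, and made to run briefly at a lower speed. Every mouse had been refed for 3 hours before food was taken away and the run began. Both groups were collected at the same time, so the comparison asks what the run changed in a recently fed liver. Whole liver was sequenced, and the labels name no batch or day.

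Peroxisomes are single-membrane organelles that hepatocytes carry in large numbers. Proteins with a peroxisomal targeting signal are carried to them by the soluble receptors PEX5 and PEX7, pass a docking complex in the membrane and leave the receptor inside, while membrane proteins are inserted with the help of PEX3, PEX16 and PEX19. The matrix shortens very long and branched fatty acids, begins the synthesis of ether lipids, finishes the side chain of bile acids, breaks down urate, glyoxylate and D-amino acids, and destroys the hydrogen peroxide that these oxidases release.

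More of these genes fell than rose after exercise. Of the 45, 22 (48.9%) were lower and 3 (6.67%) were higher at an adjusted p under 0.05, and 20 did not pass. Adjusted p-values are from the quasi-likelihood F test of edgeR, adjusted by the Benjamini-Hochberg method over all 12344 genes, of which 42.4% passed in either direction, 21.3% lower and 21.1% higher. The median log2 fold change, exercised against sedentary, was -0.17 over the 45 genes and -0.0028 over all genes tested, and 33 of the 45 lay below 0. With libraries scaled by their totals alone, the median of all genes shifted to -0.0985, 26 of the 45 were lower and 2 higher, and the split of all genes was 30.3% lower and 14.3% higher. In 17 of the 45 (37.8%) the 6 exercised livers did not overlap with the 6 sedentary livers, 15 of them lower and 2 higher, where 22.3% of all genes tested had no overlap. For each of these 17 a two-sided exact permutation test over all 924 relabellings gave p = 0.00216, the smallest it can give with 6 livers against 6. Groups without overlap fix that value, so it adds nothing to the lack of overlap. In the genes that passed edgeR with overlapping groups, the permutation test gave p from 0.00433 (Acox3) to 0.0671 (Crot). The changes were moderate in size: among the 25 genes that passed, the median absolute log2 fold change was 0.35, against 0.42 for all genes that passed. Of the 25, 9 (36%) reached 0.5 on the log2 scale and only Nudt7 reached 1, where 39.6% and 9.29% of all genes that passed did so.

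**Figure D1:**
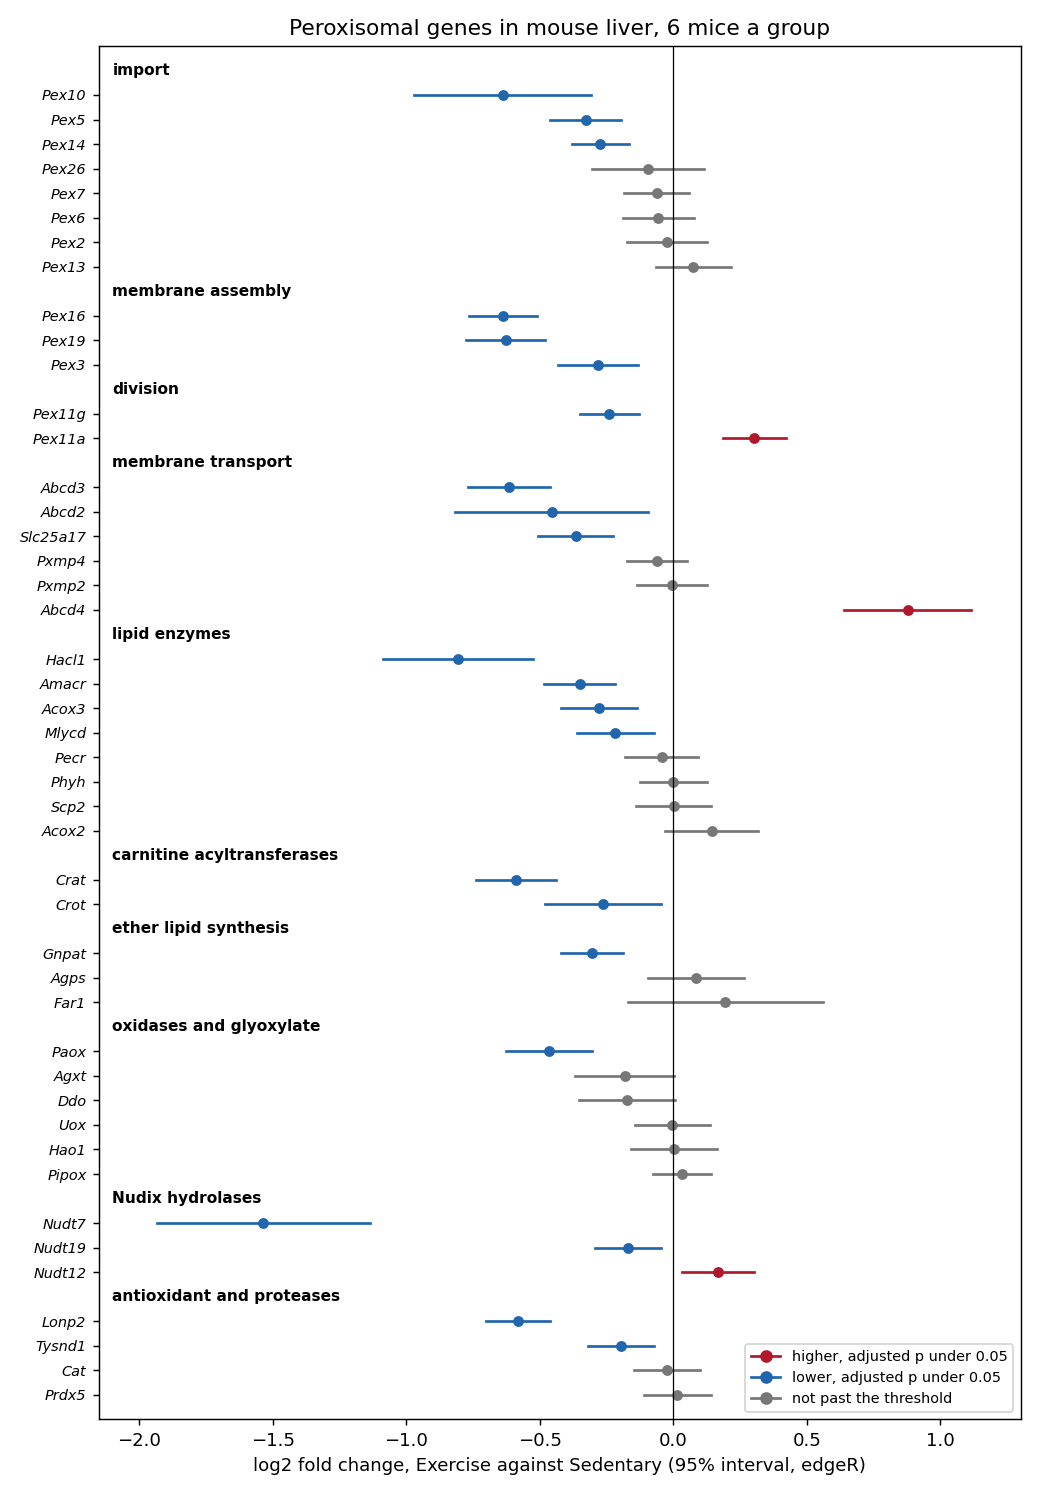
Log2 fold change (exercised against sedentary, x axis) of each of the 45 genes, grouped by role, with points for the estimate and bars for the 95% confidence interval (n = 6 livers a group). Blue marks the 22 genes that were lower, red the 3 that were higher and grey the 20 that did not pass an adjusted p of 0.05. Nudt7 lies farthest to the left at -1.54 and Abcd4 farthest to the right at 0.88.

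Levels are given below as CPM, counts divided by library size after scaling with TMM factors (trimmed means of log ratios between libraries), which can be compared between livers for 1 gene. SE stands for the standard error of a log2 fold change. Levels of different genes are compared only as FPKM, which is also scaled for transcript length. Library totals ran from 18971992 to 19324461 counts in sedentary livers and from 18745379 to 19001010 in exercised livers, and 5 hepatocyte markers summed to 111212 to 150800 CPM (median 122314) against 136013 to 155402 CPM (median 147373). Of those 5, Alb alone passed the test (log2 fold change 0.24), and all 5 log2 fold changes lay above 0. Serpina1a and Cps1 had an unadjusted edgeR p of 0.0398 and 0.0379 (adjusted p = 0.0838 and 0.0805). None of the 5 Kupffer cell, 4 cholangiocyte, 3 erythroid, 2 neutrophil or 1 lymphocyte markers that could be tested passed, at an adjusted or at an unadjusted p under 0.05. Endothelial markers gave 2 higher and 1 lower of 5, and stellate cell markers 2 lower of 5. All 4 tested muscle markers were lower. The 6 listed muscle markers summed to 11.06 to 23.05 CPM (median 12.3) in sedentary and 0.058 to 11.3 CPM (median 0.695) in exercised livers. Of the tested ones, Myh6 and Myh7 had a median of 0 CPM in exercised livers. The source of these muscle transcripts was not tested. Of the 2 adipocyte markers in the table, neither reached the count filter, with a summed level of 0 in every exercised liver and at most 0.101 CPM in a sedentary one. The part of these markers in the changes below was not tested. In whole liver, fewer cells of a type and less RNA per cell cannot be told apart.

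The import machinery gave 3 lower genes out of 8 (37.5%), the main matrix receptor, its docking partner and a ubiquitin ligase subunit. Of all genes tested, 21.3% were lower and 42.4% passed in either direction. Those shares also stand beside the counts by role below, which rest on few genes and were not tested as sets. Pex5 (gene ID 19305), the receptor for proteins with a C-terminal targeting signal, lies on chromosome 6 of GRCm38 from 124396816 to 124415067 on the minus strand. It ran from 88.9 to 107.6 CPM (median 100.2) in sedentary and from 74.0 to 87.4 CPM (median 76.7) in exercised livers, a log2 fold change of -0.33 with an SE of 0.063 (adjusted p = 0.000398). Every exercised liver was below every sedentary liver. Pex14 (gene ID 56273, chromosome 4 from 148960535 to 149099876, minus strand) encodes the membrane protein on which the loaded receptor docks. Its level was 60.4 to 65.2 CPM (median 62.6) in sedentary and 48.5 to 57.1 CPM (median 52.3) in exercised livers, a log2 fold change of -0.27 with an SE of 0.051 (adjusted p = 0.000363). The 2 groups were again apart, by a narrow gap. A noncoding antisense gene covers 28.3% of the exon bases of Pex14, and whether reads were counted by strand is not given in the sources used here.

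Pex10 (gene ID 668173, chromosome 4 from 155067016 to 155072433, plus strand), a RING-type ubiquitin ligase subunit that acts in receptor recycling, was the scarcest of the 13 peroxins, at a mean of 3.05 FPKM in sedentary livers. It ran from 3.93 to 5.96 CPM (median 4.44) in sedentary and from 1.91 to 3.83 CPM (median 3.20) in exercised livers, a log2 fold change of -0.64 with an SE of 0.16 (adjusted p = 0.00333). The groups did not overlap, but the highest exercised and the lowest sedentary liver almost met, and the whole gene rests on 893 counts over 12 libraries. The other 5 import genes did not pass (log2 fold changes in parentheses, here and below): Pex7, the receptor for the N-terminal signal (-0.06), the docking protein Pex13 (0.075), the RING partner Pex2 (-0.023), and Pex6 (-0.06) and its membrane anchor Pex26 (-0.10), which pull the used receptor out of the membrane. Of the 2 receptors, Pex5 had a 95% interval from -0.46 to -0.20 and Pex7 one from -0.18 to 0.060, and the difference between them was not tested.

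The 3 genes of membrane protein insertion all fell, with a median log2 fold change of -0.63. Pex16 (gene ID 18633, chromosome 2 from 92374676 to 92381217, plus strand) encodes the membrane protein that recruits PEX3 and starts new peroxisomes from the endoplasmic reticulum. It had the smallest adjusted p of all 45 genes. Its level was 59.8 to 77.5 CPM (median 68.4) in sedentary and 43.2 to 45.1 CPM (median 44.1) in exercised livers, a log2 fold change of -0.64 with an SE of 0.061 (adjusted p = 4.04e-07). The exercised livers were nearly alike, with a coefficient of variation of 1.72% against 9.36% in sedentary livers. Large2, a protein-coding gene on the other strand that covers 7.2% of the exon bases of Pex16, had a log2 fold change of -0.13 (adjusted p = 0.728).

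Pex19 (gene ID 19298, chromosome 1 from 172126755 to 172136493, plus strand) encodes the soluble chaperone that binds new membrane proteins and hands them to PEX3. It ran from 70.7 to 86.9 CPM (median 82.6) in sedentary and from 44.1 to 58.4 CPM (median 53.5) in exercised livers, a log2 fold change of -0.63 with an SE of 0.071 (adjusted p = 2.48e-06). Even the lowest sedentary liver lay above all 6 exercised ones. Pex3, the docking receptor for PEX19, had a smaller estimate, a difference that was not tested, with 19.1 to 22.8 CPM in sedentary and 15.3 to 19.9 CPM in exercised livers and a log2 fold change of -0.28 with an SE of 0.071 (adjusted p = 0.00373), and its groups overlapped.

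The 2 genes of peroxisome division went opposite ways. Pex11a (gene ID 18631, chromosome 7 from 79735957 to 79743131, minus strand), whose product bends the membrane when peroxisomes elongate and multiply, was the 1 peroxin of the 13 that rose. It ran from 65.4 to 77.8 CPM (median 75.7) in sedentary and from 84.6 to 96.8 CPM (median 91.2) in exercised livers, a log2 fold change of 0.30 with an SE of 0.056 (adjusted p = 0.000306). Every exercised liver was above every sedentary liver. Pex11g (gene ID 69129, chromosome 8 from 3457105 to 3467680, minus strand), a membrane protein of the same family, fell from 31.1 to 33.4 CPM (median 32.4) to 26.0 to 30.2 CPM (median 27.1), a log2 fold change of -0.24 with an SE of 0.052 (adjusted p = 0.00124). A gene on the opposite strand covers 41.1% of its exon bases. The FPKM that 1 count of Pex11g was worth shifted by -0.12 on the log2 scale between the groups, so the fall in FPKM was larger than the fall in counts. Of the genes above a floor of counts and FPKM, 0.932% shifted as far, and genes below that floor were not compared. The highest exercised liver of Pex11g, replicate 1, stood apart from the other 5.

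**Figure D2:**
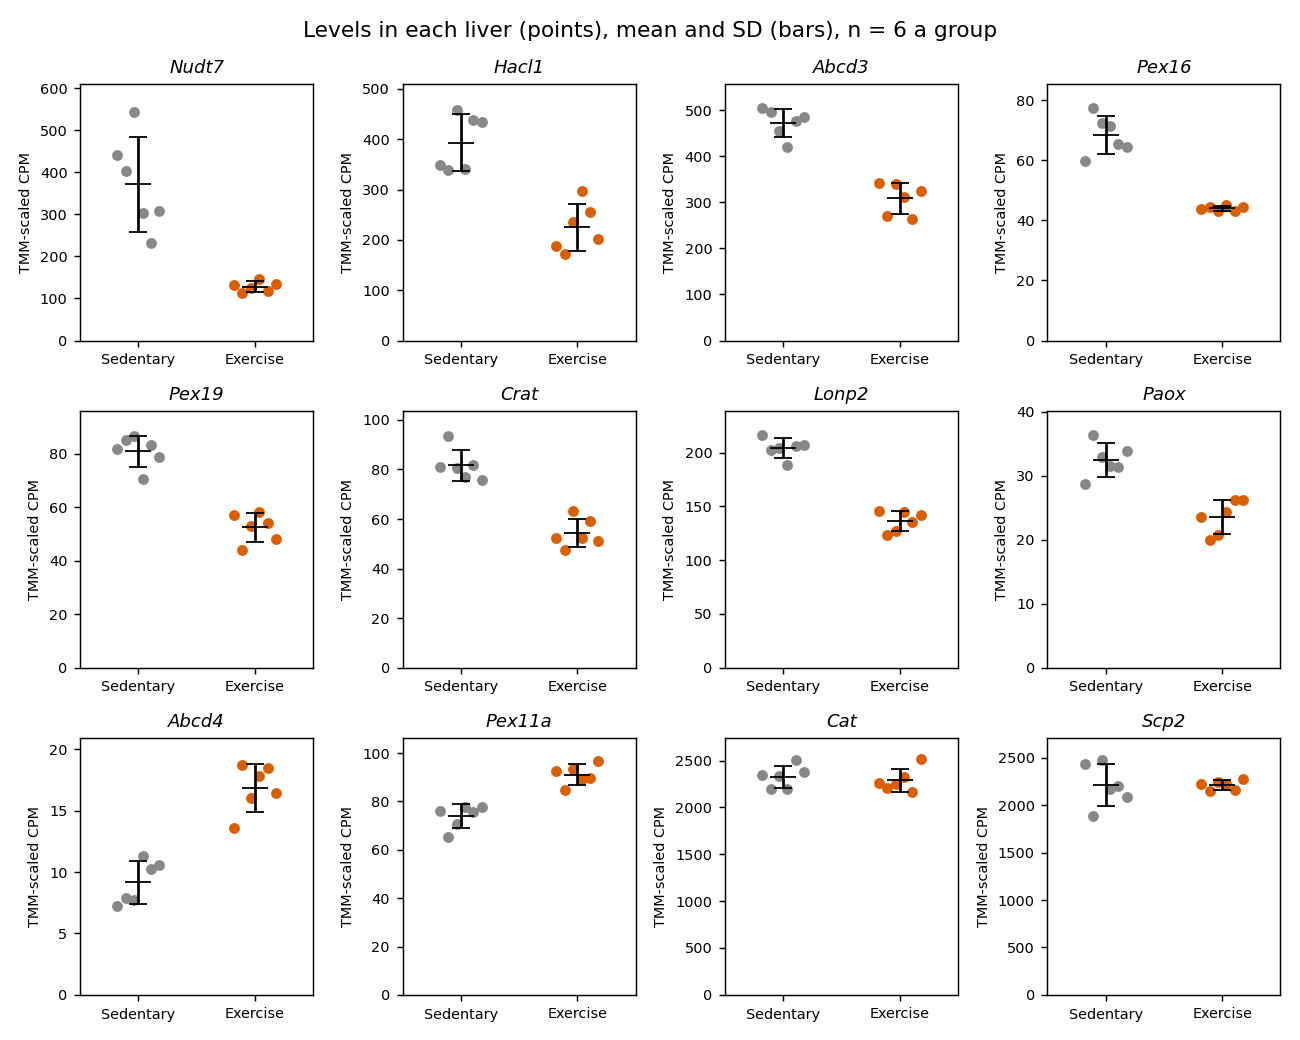
TMM-scaled CPM (y axis, from 0) of 12 genes in each of the 6 sedentary (grey) and 6 exercised (orange) livers, with the mean and SD as bars. The first 8 panels show genes that fell, Abcd4 and Pex11a are higher in every exercised liver, and the groups of Cat and Scp2 overlap.

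Of the 6 genes for membrane transporters and channels, 3 fell, 1 rose and 2 did not pass. Abcd3 (gene ID 19299, chromosome 3 from 121758774 to 121815302, minus strand) encodes PMP70, an abundant ABC transporter that carries branched acyl-CoA and bile acid precursors inward. It ran from 421 to 505 CPM (median 481) in sedentary and from 264 to 342 CPM (median 318) in exercised livers, a log2 fold change of -0.62 with an SE of 0.073 (adjusted p = 4.06e-06). The groups did not overlap. Slc25a17 (gene ID 20524, chromosome 15 from 81318911 to 81360812, minus strand), the carrier for CoA, FAD and NAD in the peroxisomal membrane, was at 48.3 to 54.4 CPM (median 52.0) in sedentary and 34.8 to 45.3 CPM (median 41.4) in exercised livers. Its log2 fold change was -0.37 (SE 0.067, adjusted p = 0.000273), and its groups did not overlap.

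Abcd4 (gene ID 19300, chromosome 12 from 84601464 to 84617413, minus strand) had the largest rise of the set. Although its family is named for peroxisomal transporters, its product is known as a lysosomal protein that exports vitamin B12. The level ran from 7.25 to 11.3 CPM (median 9.08) in sedentary and from 13.6 to 18.8 CPM (median 17.1) in exercised livers, a log2 fold change of 0.88 with an SE of 0.11 (adjusted p = 1.09e-05). The exercised mean was 1.84 times the sedentary mean and no value overlapped. Abcd2, a transporter of very long-chain acyl-CoA that is scarce in this tissue, was at 7.87 to 17.6 CPM in sedentary and 7.24 to 9.39 CPM in exercised livers. Its log2 fold change of -0.45 (SE 0.17) passed by little (adjusted p = 0.0425), and leaving out any 1 of 8 of the 12 livers ended the call (adjusted p = 0.0595 to 0.0888). Without the highest sedentary liver, replicate 5, it was -0.28 (adjusted p = 0.0595). The channel protein Pxmp2 (-0.0051) and Pxmp4 (-0.06), both membrane proteins of moderate abundance, did not pass.

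Of the 8 enzymes that break down branched fatty acids, bile acid precursors and other acyl-CoA, 4 (50%) fell and 4 did not pass. Among all genes tested, 21.3% were lower and 42.4% passed in either direction. A fall and the lack of a call were both found within 1 pathway. Phytanic acid, a branched fatty acid from the diet, is first hydroxylated by PHYH and then cleaved by HACL1, and AMACR turns the methyl branch of the product into the stereoisomer that β-oxidation accepts. Hacl1 (gene ID 56794, chromosome 14 from 31598730 to 31641286, minus strand) had the second largest fall of the set. It ran from 339 to 458 CPM (median 392) in sedentary and from 173 to 297 CPM (median 218) in exercised livers, a log2 fold change of -0.81 with an SE of 0.13 (adjusted p = 0.000243). Every exercised liver was lower than every sedentary one, with a wide spread among the exercised livers (coefficient of variation 20.7%). A protein-coding gene model on the same strand, Gm49387, shares 31.1% of its exon bases, and was not analysed here. Phyh, by contrast, did not pass: it ran from 1457 to 1795 CPM in sedentary and from 1559 to 1750 CPM in exercised livers, and the 95% interval of its log2 fold change went from -0.12 to 0.13.

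Amacr (gene ID 17117, chromosome 15 from 10981756 to 10996626, plus strand) was at 88.2 to 118 CPM (median 103) in sedentary and 77.5 to 81.4 CPM (median 80.0) in exercised livers. Its log2 fold change was -0.35 (SE 0.064, adjusted p = 0.000264) with no overlap, and as for Pex16 the exercised livers were close to one another (coefficient of variation 1.75% against 10.6%). Acox3, an oxidase of branched acyl-CoA, fell by 0.28 on the log2 scale (SE 0.068, adjusted p = 0.0031), and Mlycd, which breaks down malonyl-CoA, fell by 0.22 (SE 0.069, adjusted p = 0.0172), both with overlapping groups. Acox2, the oxidase of bile acid precursors (0.14), Scp2, the thiolase and sterol carrier that ends the same pathway (0.0014), and Pecr, a trans-2-enoyl-CoA reductase (-0.04), did not pass. Scp2 ran from 1891 to 2480 CPM in sedentary and from 2148 to 2275 CPM in exercised livers, so the exercised livers lay within the sedentary range.

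Both carnitine acyltransferases fell, the enzymes that attach shortened acyl chains to carnitine so that they can leave for the mitochondrion. Crat (gene ID 12908, chromosome 2 from 30400471 to 30415813, minus strand), which handles acetyl groups, ran from 75.8 to 93.7 CPM (median 80.7) in sedentary and from 47.6 to 63.1 CPM (median 52.4) in exercised livers, a log2 fold change of -0.59 with an SE of 0.071 (adjusted p = 4.80e-06). Its groups did not overlap. Dolpp1, which covers 1.1% of the exon bases of Crat from the other strand, was also lower (log2 fold change -0.32, adjusted p = 0.0113). Crot, for medium-length chains, fell by 0.26 on the log2 scale (SE 0.10) at an adjusted p of 0.0479, with overlapping groups, and its adjusted p reached 0.110 with 1 liver left out.

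Ether lipid synthesis starts with GNPAT and AGPS in the matrix and with FAR1, which supplies the fatty alcohol, at the membrane. Gnpat (gene ID 14712, chromosome 8 from 124863033 to 124890057, plus strand) was at 35.1 to 40.3 CPM (median 38.8) in sedentary and 28.3 to 33.9 CPM (median 30.9) in exercised livers, a log2 fold change of -0.31 with an SE of 0.055 (adjusted p = 0.000249). It did not overlap, while the protein-coding gene 2810004N23Rik, which covers 2.5% of its exon bases from the other strand, was also lower (-0.35, adjusted p = 0.00464). Agps (0.086) and Far1 (0.20) did not pass. Both were scarce, at a mean of 1.03 and 0.353 FPKM in sedentary livers, against 13.5 FPKM for Gnpat.

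Of the 6 oxidases and glyoxylate, purine and polyamine enzymes that could be tested, 1 changed. Paox (gene ID 212503, chromosome 7 from 140115799 to 140137224, plus strand), which oxidises acetylated polyamines, ran from 28.7 to 36.3 CPM (median 32.2) in sedentary and from 19.9 to 26.2 CPM (median 24.0) in exercised livers. Its log2 fold change was -0.47 (SE 0.077, adjusted p = 0.000105) and its groups did not overlap. The other 5 did not pass: urate oxidase Uox (-0.0031), the glycolate oxidase Hao1 (0.0038), the glyoxylate aminotransferase Agxt (-0.18), D-aspartate oxidase Ddo (-0.17) and Pipox, which oxidises pipecolic acid and sarcosine (0.033). Uox ran from 1144 to 1474 CPM in sedentary and from 1178 to 1424 CPM in exercised livers, and Agxt from 77.6 to 126 CPM and from 80.6 to 89.8 CPM, with the exercised livers inside the sedentary range in both.

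The largest change of the set was in a Nudix hydrolase. Nudt7 (gene ID 67528, chromosome 8 from 114133557 to 114154739, plus strand) encodes the hydrolase that splits CoA and acyl-CoA inside the peroxisome. It ran from 232 to 544 CPM (median 355) in sedentary and from 112 to 147 CPM (median 129) in exercised livers, a log2 fold change of -1.54 with an SE of 0.18 (adjusted p = 4.24e-05). The exercised mean was 0.345 times the sedentary mean. The sedentary livers spread widely, with a coefficient of variation of 30.4% against 9.82% in exercised livers, and the lowest of them still stood above the highest exercised liver. Nudt19, another CoA hydrolase, fell by 0.17 on the log2 scale (SE 0.059, adjusted p = 0.0266) with an antisense gene over 35.0% of its exon bases, and Nudt12, which splits NADH, rose by 0.17 (SE 0.064, adjusted p = 0.0433), both with overlapping groups. With 1 liver left out their adjusted p reached 0.0779 and 0.102, and that of Nudt12 was 0.329 with library size alone as scaling.

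The enzymes that destroy peroxide did not pass, while both matrix proteases fell. Catalase, the classical marker enzyme of the organelle (Cat), ran from 2195 to 2507 CPM (median 2339) in sedentary and from 2169 to 2520 CPM (median 2257) in exercised livers. The 95% interval of its log2 fold change went from -0.15 to 0.10. Peroxiredoxin 5 (Prdx5), found in peroxisomes, mitochondria and cytosol, had a log2 fold change of 0.015. Lonp2 (gene ID 66887, chromosome 8 from 86624043 to 86723873, plus strand), the protease that clears faulty matrix proteins, was at 189 to 217 CPM (median 205) in sedentary and 124 to 146 CPM (median 139) in exercised livers, a log2 fold change of -0.58 with an SE of 0.057 (adjusted p = 5.48e-07). The gap was wider than the range within each group. Tysnd1, the protease that trims imported enzymes, fell by 0.20 (SE 0.059, adjusted p = 0.0131), with overlapping groups.

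**Figure D3:**
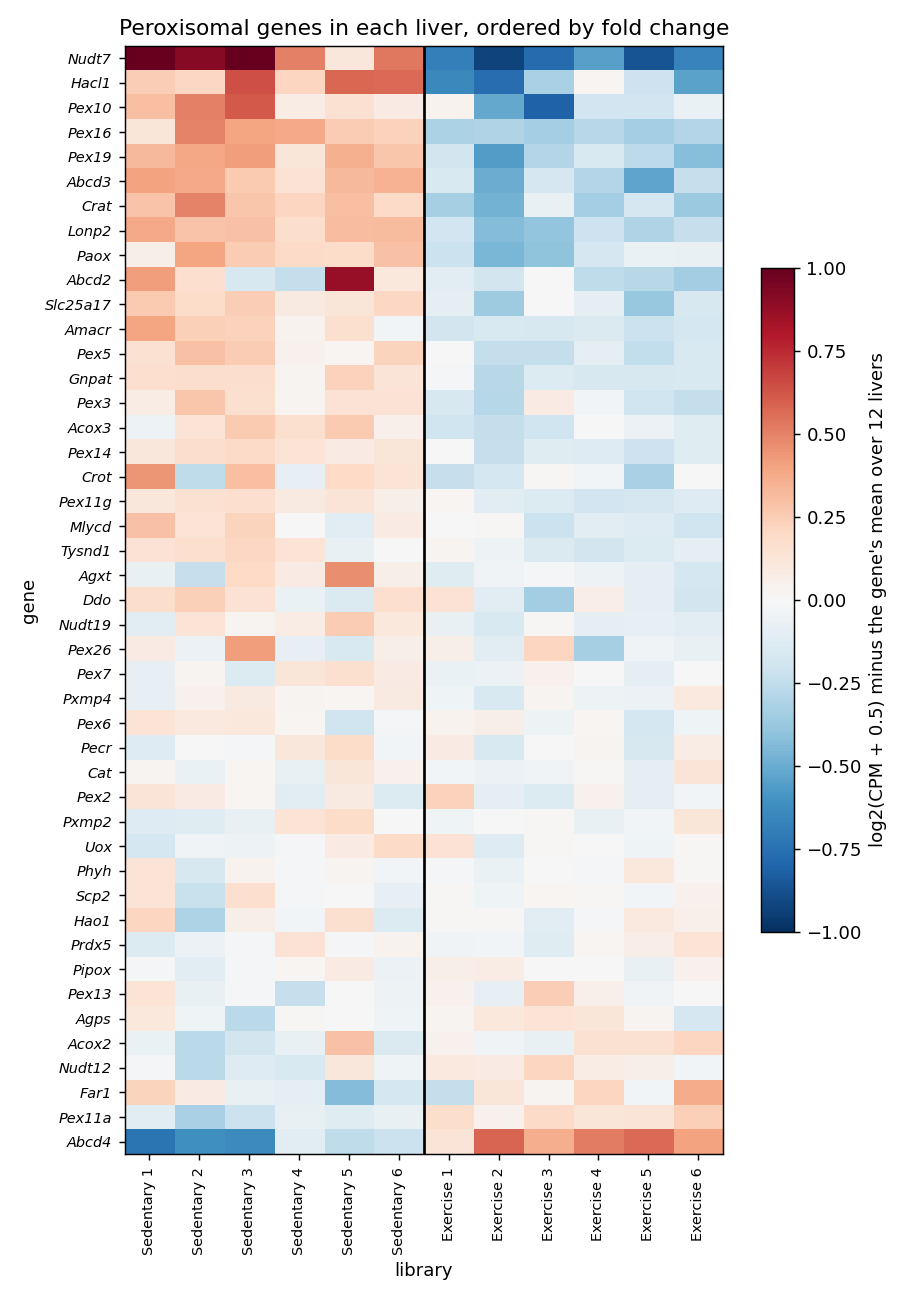
Heatmap of the 45 genes (rows, ordered by fold change) in the 12 livers (columns), coloured by log2(CPM + 0.5) minus the mean of the gene over all livers, with colours ending at 1 above and below 0. Genes at the top are higher in the 6 sedentary livers to the left of the line, from Nudt7 down, and Abcd4 at the bottom is higher in the 6 exercised livers.

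The 4 most abundant genes of the set did not pass. In sedentary livers Phyh had a mean of 1183 FPKM, Cat 960 FPKM, Scp2 873 FPKM and Uox 745 FPKM, followed by Nudt7 at 328 FPKM, and the spread over livers was 76.6, 33.7, 80.0, 64.8 and 103 FPKM (SD, n = 6). In this order the livers of Phyh did not overlap with those of Cat, nor those of Uox with those of Nudt7, while Cat and Scp2, Scp2 and Uox, and Nudt7 and the next gene, Pecr, did overlap with each other. Among the 15 genes of highest level, from 75.3 to 1183 FPKM, 5 fell and 10 did not pass, where 19.6% of all genes tested in that range were lower. Among the 15 of middle level, from 23.6 to 66.6 FPKM, 11 fell, 1 rose and 3 did not pass, where 28.3% of all genes in the range were lower. Among the lowest 15, from 0.353 to 21.0 FPKM, 6 fell, 2 rose and 7 did not pass, with 21.9% of all genes in the range lower.

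Summed over the 45 genes, the level was 5886 to 6425 FPKM (median 6150) in sedentary and 4991 to 5486 FPKM (median 5333) in exercised livers, without overlap. On the TMM scale the sums overlapped, at 10997 to 12299 CPM (median 11945) against 10361 to 11299 CPM (median 10974). The FPKM values carry no TMM scaling, and on log2(FPKM + 0.1) the median log2 fold change of all genes tested was -0.0932. The part of that shift in the FPKM sums was not tested. Phyh, Cat, Scp2 and Uox together held 59.5% to 62.2% of the summed FPKM in sedentary and 65.6% to 66.7% in exercised livers. The share of the 22 genes that fell was 17.9% to 22.3% in sedentary and 12.8% to 14.1% in exercised livers, a difference that the choice of those genes fixes. Variation between livers was small, with a median coefficient of variation of 8.32% in sedentary and 6.81% in exercised livers, against 11.6% and 10.2% over all genes tested. Those genes were not matched for level, and 8972 of the 12344 lay in the FPKM range of the lowest 15 of the set.

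**Figure D4:**
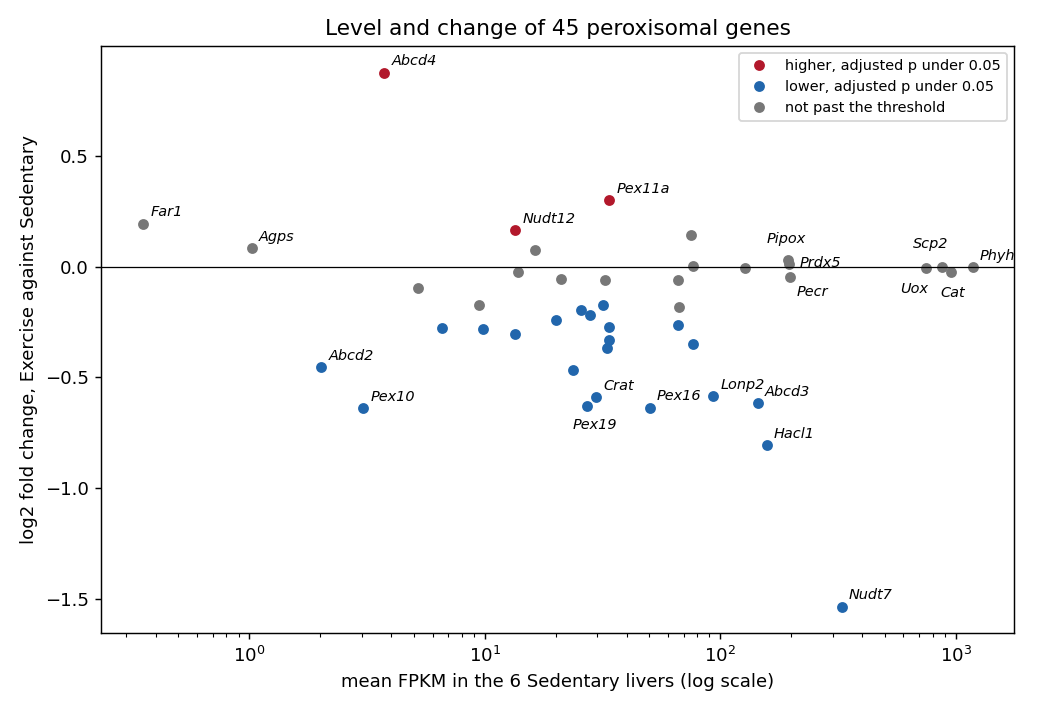
Log2 fold change (exercised against sedentary, y axis) of the 45 genes against their mean FPKM in the 6 sedentary livers (x axis, log scale), 1 point a gene, coloured by the same call as above. Phyh, Cat, Scp2 and Uox, from 745 to 1183 FPKM, lie at about 0, and Nudt7, at 328 FPKM, lies lowest.

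Other peroxisomal genes, listed beside the set, moved as follows. For comparison, 42.4% of all genes tested passed, 21.3% lower and 21.1% higher, and no list was tested as a set. Of 13 tested genes of peroxisomal acyl-CoA oxidation, 8 (61.5%) fell and none rose (median log2 fold change -0.25). The 3 of smallest adjusted p were the acyl-CoA thioesterases Acot4 (-0.82) and Acot3 (-1.91) and the reductase Decr2 (-0.42). Of 17 further matrix and membrane genes, 7 (41.2%) fell and 1 rose, so 47.1% passed, near the share of all genes. The falls were led by the acyl-CoA binding protein Acbd4 (-0.40), the NADP-linked dehydrogenase Idh1 (-0.33) and Mpv17l (-0.32). Gstk1, a glutathione transferase, rose (0.17). None of the 3 tested division genes shared with mitochondria passed at an adjusted p under 0.05 or at an unadjusted p under 0.05, and their log2 fold changes ran from -0.029 for Fis1 to 0.049 for Mff.

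The 6 listed regulators of peroxisomal genes went different ways. The coactivators Ppargc1a (log2 fold change 1.88, adjusted p = 5.09e-06) and Ppargc1b (1.37, adjusted p = 4.68e-06) and the receptor Ppara (0.42, adjusted p = 0.00414) rose. The related receptors Pparg (-0.85, adjusted p = 5.74e-05) and Ppard (-0.84, adjusted p = 0.00291) fell, and their partner Rxra (0.067) did not pass. These are mRNA levels, and no binding or activity was measured.

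Promoter sequence was looked at because many of these genes fell together. RefSeq promoter windows on GRCm38.p6, 250 bases before each start, were found for 37 of the 45 genes. The letters CCGGAA or their reverse complement TTCCGG, the core of sites for ETS-family factors, were in a window of 13 of the 37 (35.1%), against 13.6% of 27025 genes. That background, used here for all motifs and for GC, was every gene with a window, tested above or not. Shares and medians among the 12344 genes tested were not taken. By outcome they were in 8 of 18 genes that fell, 4 of 18 that did not pass and the 1 that rose. The windows of the set were also richer in GC, with a median of 58.8% and 14 CpG pairs, against 52.8% and 6 over all genes. The medians were 62.2% and 17 CpG pairs in the 18 genes that fell and 55.2% and 9 in the 18 that did not pass, and the part of GC content in the motif counts was not tested. The CCAAT box (CCAAT or ATTGG) was in 15 of 37 (40.5%, against 37.5% of all genes), AGGTCA or TGACCT, a single nuclear receptor hexamer, in 4 (10.8% against 15.8%), AGAACA or TGTTCT, a single glucocorticoid receptor hexamer, in 8 (21.6% against 18.2%), and the E-box CACGTG in 3 (8.11% against 6.86%). The full cAMP response element TGACGTCA and the forkhead letters TGTTTAC or GTAAACA were each in 1 window of the set (2.70%, against 1.77% and 3.54%). Both strands were searched, each motif was counted on its own where matches overlapped, and a match describes the sequence only.

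The windows of 5 genes are shown, those of Nudt7 as the largest fall, of Pex16, Lonp2 and Abcd3 as the falls of smallest adjusted p with a window, and of Pex11a as the rise with a window. Each is written 5′ to 3′ on the strand of the gene and ends at the base before the start. Capitals mark CCGGAA or TTCCGG and CCAAT or ATTGG. Where a gene had several starts, only its most upstream window is shown, while the motif counts above used every window (46 for the 37 genes).
Nudt7 promoter, chr8:114133324-114133573, plus strand: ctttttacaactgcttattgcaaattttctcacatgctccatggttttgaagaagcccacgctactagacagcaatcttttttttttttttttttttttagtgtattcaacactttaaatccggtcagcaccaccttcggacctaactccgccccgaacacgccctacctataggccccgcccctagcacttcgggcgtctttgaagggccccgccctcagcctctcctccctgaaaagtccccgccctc
Pex16 promoter, chr2:92374426-92374675, plus strand: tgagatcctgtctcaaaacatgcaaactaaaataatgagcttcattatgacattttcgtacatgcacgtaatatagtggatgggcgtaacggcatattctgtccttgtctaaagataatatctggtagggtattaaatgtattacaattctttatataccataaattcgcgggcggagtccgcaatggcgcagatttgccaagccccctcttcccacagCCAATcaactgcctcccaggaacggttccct
Lonp2 promoter, chr8:86623793-86624042, plus strand: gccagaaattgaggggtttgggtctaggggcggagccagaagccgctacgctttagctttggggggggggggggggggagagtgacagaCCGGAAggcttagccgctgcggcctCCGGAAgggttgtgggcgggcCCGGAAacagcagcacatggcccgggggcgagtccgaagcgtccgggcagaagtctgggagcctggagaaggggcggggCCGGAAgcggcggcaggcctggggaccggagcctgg
Abcd3 promoter, chr3:121815303-121815552, minus strand: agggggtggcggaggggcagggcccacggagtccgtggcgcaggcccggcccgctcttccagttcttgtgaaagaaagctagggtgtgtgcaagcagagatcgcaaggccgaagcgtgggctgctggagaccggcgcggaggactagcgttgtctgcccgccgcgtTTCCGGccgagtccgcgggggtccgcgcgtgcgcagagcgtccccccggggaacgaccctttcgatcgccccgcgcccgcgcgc
Pex11a promoter, chr7:79743132-79743381, minus strand: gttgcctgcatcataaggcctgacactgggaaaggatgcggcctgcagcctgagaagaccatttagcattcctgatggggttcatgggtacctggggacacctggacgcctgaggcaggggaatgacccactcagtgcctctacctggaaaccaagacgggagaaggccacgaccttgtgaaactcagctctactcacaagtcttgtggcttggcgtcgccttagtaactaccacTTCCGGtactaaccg
In the windows shown, Lonp2 held CCGGAA 4 times, at 161, 136, 115 and 36 bases before its start. Abcd3 held it on the other strand at 84 bases and Pex11a, the gene that rose, at 15 bases before the start. Pex16 held a CCAAT box at 31 bases, and the Nudt7 window held neither set of letters.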

How the data were processed

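Total RNA of 12 livers was made into mRNA libraries with a BGI kit. The authors deposited a table with, for each library, estimated counts and FPKM values of every gene, and the submitters' processing notes name Bowtie2 2.3.4.3, RSEM 1.3.1 and mm10. The deposited estimated counts are not scaled between libraries, 31.3% of them are not whole, and RSEM divides reads shared by several genes by an estimate. The deposited FPKM values are scaled by the authors for transcript length and depth. The test and the strand setting of the counting are not given in the sources used here.

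Groups were taken from the sample labels. After rounding, edgeR 4.0.16 (run in R 4.3.3) fitted all counts with exercise as the only term, using TMM factors, its robust quasi-likelihood fit and filterByExpr at a count minimum of 10, with Benjamini-Hochberg adjustment over all genes tested and a threshold of 0.05. Single genes were also tested by an exact permutation test on mean log2(CPM + 0.5). Alternatives were RLE size factors, library size alone, no filter beyond 1 count, DESeq2 1.42.0, limma-voom and limma 3.58.1 on log2(FPKM + 0.1) or log2(FPKM + 1), the replicate number as a block, and leaving out each liver. The biological coefficient of variation was 11.3%. No 2 of 66 library pairs were identical, and for pairs within a group the chi-square per gene ran from 7.53 to 42.1. The labels number the livers within each group, and p-values measure the spread between them. In simulated counts of 12252 genes edgeR recovered 81% of genes changed by 0.5 and 96% of those changed by 1 on the log2 scale. It called 0 of them in the wrong direction, and unchanged genes made up 2.75% of what it called. Only a small share of genes was changed in the simulation, none of low count and none by less than 0.5. Recovery of smaller changes, and the share of false calls where 42.4% of genes pass, were therefore not measured.

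Gene positions and exon overlaps are from GENCODE M21 on GRCm38. Promoter windows are from RefSeq. Full values are given for the 10 genes of smallest adjusted p in each direction and for genes whose groups do not overlap, and of each list of other peroxisomal genes up to 3 per direction are named. Fis1 and Mff, the printed promoters and the genes on the other strand were picked with their values in view. The set and the lists were chosen with earlier results of these data known. Some genes that the rule names are left out of the text. Protein targeting signals were not analysed here. Python 3.11.15 and pandas 2.3.3 did the rest.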

Additional observations from a re-analysis of the deposited data

Results flagged for a closer look

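In 4 of 90 groups of 6 livers, 1 gene in 1 group each, a single liver lay far from the other 5, measured as its gap to the nearest divided by the range of the group. Chance flags about 1 in 20 groups, or 4.5 of 90. Pex26 stood at 24.7 CPM in Sedentary replicate 3, next to 19.5 CPM (0.637 of the range). Pex11g stood at 30.2 CPM in Exercise replicate 1, next to 27.5 CPM (0.638 of the range), which put that liver nearest to the sedentary livers. Acox2 stood at 231.8 CPM in Sedentary replicate 5, next to 180.3 CPM (0.687 of the range), and without that liver its log2 fold change was 0.23 (adjusted p = 0.00831 by edgeR), past the threshold it otherwise missed. Crat stood at 93.7 CPM in Sedentary replicate 2, next to 82.0 CPM (0.654 of the range), and it stayed lower without any 1 liver (log2 fold change -0.63 to -0.55).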

How the results depend on the processing

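Of the 45 genes, 25 kept their call and direction in every setting tried, 21 of them past the threshold, and the counts of genes that fell stayed at 19 to 26. Adjusted p-values here are edgeR's unless named. Abcd2 lost its call with no filter (adjusted p = 0.0664), limma-voom (0.0665) and the replicate block (0.0556), and without Sedentary replicate 1, 2 or 5 or Exercise replicate 1, 2, 4, 5 or 6 (up to 0.0888). Crot lost it with no filter (0.0600), limma-voom (0.0605) and the block (0.0615), and without Sedentary replicate 1, 3, 5 or 6 or Exercise replicate 1, 2, 4, 5 or 6 (up to 0.110). Nudt12 lost it by library size alone (0.329), with no filter (0.0605), with limma on FPKM and with the block (0.0587), and without Sedentary replicate 2, 3, 4 or 6 or Exercise replicate 1, 2, 3 or 4 (up to 0.102). Nudt19 lost it without Sedentary replicate 5 or Exercise replicate 2, 4, 5 or 6 (up to 0.0779). Agxt, Ddo, Pex7 and Pxmp4 passed as lower by library size alone and with limma on FPKM. Agxt also passed without Sedentary replicate 2, Acox2 without Sedentary replicate 5 and Ddo without Exercise replicate 1. No call was opposite to the main one. The causes were not tested.

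Over all genes, limma on log2(FPKM + 0.1) and log2(FPKM + 1) called 1702 and 1714 genes higher, where edgeR called 2603, and 31.4% and 31.6% of calls were higher, against 49.8%. Signs changed only in genes that did not pass. By library size alone the log2 fold change was -0.024 for Pex13, -0.095 for Phyh, -0.093 for Scp2, -0.011 for Agps, -0.062 for Pipox, -0.087 for Hao1 and -0.080 for Prdx5. On log2(FPKM + 0.1) it was -0.012 for Pex13, -0.094 for Phyh, -0.089 for Scp2, -0.0088 for Agps, -0.059 for Pipox, -0.083 for Hao1 and -0.081 for Prdx5. On log2(FPKM + 1) it was -0.012 for Pex13, -0.094 for Phyh, -0.089 for Scp2, -0.0054 for Agps, -0.059 for Pipox, -0.082 for Hao1 and -0.080 for Prdx5. With no filter Phyh was at -0.00071. With 1 liver left out, the value ran from -0.074 to 0.0071 for Pex2, -0.031 to 0.038 for Pxmp2, -0.031 to 0.029 for Phyh, -0.040 to 0.037 for Scp2, -0.052 to 0.050 for Hao1, -0.036 to 0.038 for Uox, -0.045 to 0.0040 for Cat and -0.010 to 0.048 for Prdx5.

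Livers that share a number did not deviate together in every pair (correlations from -0.099 to 0.16), and 3 of 12 correlated best with their own number, so the pairing has no support. With the replicate block 22 of the 45 genes passed, 20 lower and 2 higher, and of all genes 4956 did. Depth limits Far1 and Pex10 most, with 380 and 893 counts over 12 libraries.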
